A study of Mus musculus with 16 samples.

Results

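The genes described here are the ligands, receptors and feedback regulators of tumor necrosis factor (TNF) signalling together with targets of NF-κB, in WT and Nlrx1 knockout mouse astrocytes. They were chosen by symbol. Of the 10 symbols on the list, 9 (Tnfsf10, Tnfrsf1a, Tnfrsf1b, Fas, Tnfaip3, Tnip1, Birc3, Traf1 and Tnfaip2) were among the 16707 rows of the deposited table of log2 CPM, which are read counts scaled to a common library size. The remaining gene, Tnf, is not a row of that table and was followed in the transcript counts.

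TNF binds its receptors as a trimer, and the occupied receptor gathers adaptor proteins and ubiquitin ligases that switch on the kinase IKK. IKK marks the IκB proteins for destruction, which frees NF-κB to enter the nucleus and transcribe inflammatory genes. Among those genes are inhibitors of the same pathway, so that an NF-κB response limits itself. LPS reaches NF-κB through Toll-like receptor 4 and IFNγ acts through its own receptor, and in astrocytes the pair of stimuli is a common way to provoke an inflammatory state.

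The study asked how loss of NLRX1, a mitochondrial member of the NOD-like receptor family, changes the response of astrocytes to inflammatory stimuli. Astrocytes from the brains of 6-day-old pups were selected with beads against the surface antigen ACSA-2 and grown in serum-free medium with heparin-binding EGF, in all groups alike. WT (C57BL6J) and NLRX1-/- (KO) cultures received either vehicle (water) or 500 ng/mL LPS with 10 ng/mL IFNγ for 24 h. Each genotype had 4 cultures, each from its own set of pups, called a litter here, and each litter gave 1 vehicle and 1 LPS+IFNγ well, for 16 poly-A libraries. The labels describe a pair of wells only as coming from the same set of mice, the sexes are not given in the sources used here, and each litter has a single genotype, so that litter and genotype effects are separated only by the spread between litters.

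The libraries held 27259420 to 43752903 Salmon reads. Nlrx1 was 17.2 to 21.7 CPM in WT vehicle and 3.52 to 7.75 CPM in KO vehicle libraries (log2 difference -1.75, limma adjusted p = 0.0497), and 16.8 to 18.2 against 2.07 to 4.62 CPM under LPS+IFNγ (-2.22, adjusted p = 0.00222), so transcript was lower but still counted in the knockout. All 10 astrocyte markers were in the table. Their summed level was 6868 to 10848 CPM in WT vehicle, 5386 to 8416 in KO vehicle, 6319 to 9453 in WT LPS+IFNγ and 5391 to 7265 in KO LPS+IFNγ. Of these markers, 3 were called higher and 4 lower in the WT response, 2 higher and 5 lower in the KO response, and 5 lower in KO than in WT under LPS+IFNγ. Of 15 microglia or macrophage markers, 12 (among them Aif1, Cx3cr1, Tmem119, Csf1r and Ptprc) were not in the table, and their reads ran from 0 to 20 in a library. The summed level of the 3 that were in it was 27.9 to 49.0 CPM over all libraries and was lower under LPS+IFNγ (28.8 to 40.1 in WT, 27.9 to 33.8 in KO) than in vehicle (39.9 to 49.0 in WT, 38.1 to 47.9 in KO), with the ranges touching only in WT. All 9 oligodendrocyte lineage markers were detected, at a summed level of 2721 to 3371 CPM in WT vehicle, 2835 to 3733 in KO vehicle, 2227 to 2956 in WT LPS+IFNγ and 2135 to 2801 in KO LPS+IFNγ. Of these, 6 were called lower in the WT response and 7 in the KO response. Between genotypes their median log2 difference was -0.60 in vehicle, with 0 called, and -0.83 under LPS+IFNγ, with 1 (Pdgfra) called lower in KO. The 5 neuron markers summed to 14.5 to 20.6 CPM in vehicle and 58.8 to 91.1 CPM in stimulated libraries, and Tubb3 alone was 4.56 to 11.5 CPM in vehicle and 51.2 to 79.4 CPM when stimulated. In the WT response Tubb3 and Stmn2 were called higher and Rbfox3 lower (median of the 5, log2 0.45), and in the KO response Tubb3 and Snap25 higher and Rbfox3 and Syt1 lower (0.47). The 5 mural or fibroblast markers summed to 8.87 to 38.3 CPM over all libraries, and 1 of 5 endothelial markers was in the table. The part of these cell types in the results was not tested. In such bulk libraries, fewer cells of a type and less RNA per cell cannot be told apart.

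The promoters of Tnfsf10, Tnfaip2 and Tnfaip3 are shown because these genes rose most, that of Tnip1 because its product works with that of Tnfaip3, and that of Traf1 because it alone fell. Each sequence is the 250 bases, on the strand of the gene, before a start given in the RefSeq promoter table (build GRCm38.p6). That start is not always the outermost start of the gene in the annotation. The window of Tnip1 lies within the annotated gene. Those of Tnfsf10, Tnfaip3 and Tnfaip2 lie mostly within theirs, and that of Traf1 lies partly within its own. Each was found exactly once in GRCm39, to which the coordinates refer. Capitals mark matches, on either strand, to the NF-κB motif known as the κB consensus, the interferon-stimulated response element core GAAANNGAAA, the gamma-activated sequence (GAS) motif TTCNNNGAA and the TATA box TATAAA. The windows lie at chr3:27370976-27371225 (plus strand), chr10:18891159-18891408 (minus), chr11:54853767-54854016 (minus), chr2:34851785-34852034 (minus) and chr12:111408845-111409094 (plus).
Tnfsf10 upstream of start: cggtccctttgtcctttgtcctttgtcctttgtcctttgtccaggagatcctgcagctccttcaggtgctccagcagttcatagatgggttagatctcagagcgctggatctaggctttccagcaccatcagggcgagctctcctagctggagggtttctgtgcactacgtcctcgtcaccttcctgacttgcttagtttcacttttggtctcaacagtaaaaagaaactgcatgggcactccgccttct
Tnfaip3 upstream of start: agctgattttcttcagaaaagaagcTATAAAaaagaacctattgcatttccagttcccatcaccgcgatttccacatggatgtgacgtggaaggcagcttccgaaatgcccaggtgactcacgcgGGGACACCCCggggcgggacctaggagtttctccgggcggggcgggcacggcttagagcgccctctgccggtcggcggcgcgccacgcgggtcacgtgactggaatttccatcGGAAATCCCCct
Tnip1 upstream of start: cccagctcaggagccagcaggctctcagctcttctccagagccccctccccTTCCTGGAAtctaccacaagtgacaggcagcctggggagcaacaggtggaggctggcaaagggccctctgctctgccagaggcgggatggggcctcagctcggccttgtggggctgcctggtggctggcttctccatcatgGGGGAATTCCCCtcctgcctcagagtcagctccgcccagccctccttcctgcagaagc
Traf1 upstream of start: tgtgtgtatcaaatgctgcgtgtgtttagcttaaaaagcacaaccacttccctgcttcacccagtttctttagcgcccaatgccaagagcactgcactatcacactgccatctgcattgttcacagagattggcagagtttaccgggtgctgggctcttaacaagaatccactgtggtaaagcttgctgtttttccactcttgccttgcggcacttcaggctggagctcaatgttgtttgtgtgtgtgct
Tnfaip2 upstream of start: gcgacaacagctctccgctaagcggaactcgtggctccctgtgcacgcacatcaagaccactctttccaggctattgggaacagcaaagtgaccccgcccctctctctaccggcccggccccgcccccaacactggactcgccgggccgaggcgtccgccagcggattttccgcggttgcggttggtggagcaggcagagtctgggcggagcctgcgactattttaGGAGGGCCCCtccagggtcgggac
The κB consensus occurs in the windows of Tnfaip3, Tnip1 and Tnfaip2, which is 3 of the 10 listed genes, and in 8.46% of the 32851 promoter windows of the table, each 250 bases before to 50 after a start. In Tnfaip3 it lies at 2 places, starting 125 and 12 bases before the start. In Tnip1 the overlapping matches that begin 58 to 56 bases before the start form 1 stretch, and a GAS motif begins 199 bases before it. In Tnfaip2 the match begins 24 bases before the start. The GAS motif is in the windows of 4 of the 10 genes (Tnfrsf1a, Tnfrsf1b, Fas and Tnip1) against 8.3% of all windows. The interferon element core is in that of Tnfrsf1b (3.44% of all windows), where it ends next to the start, and the TATA box in those of Tnf and Tnfaip3 (13.6%). The windows of Tnfsf10, Traf1 and Birc3, and a further Tnfaip3 window in the table, hold none of these letters. These matches describe the sequence only, and no binding was measured.

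**Figure D1:**
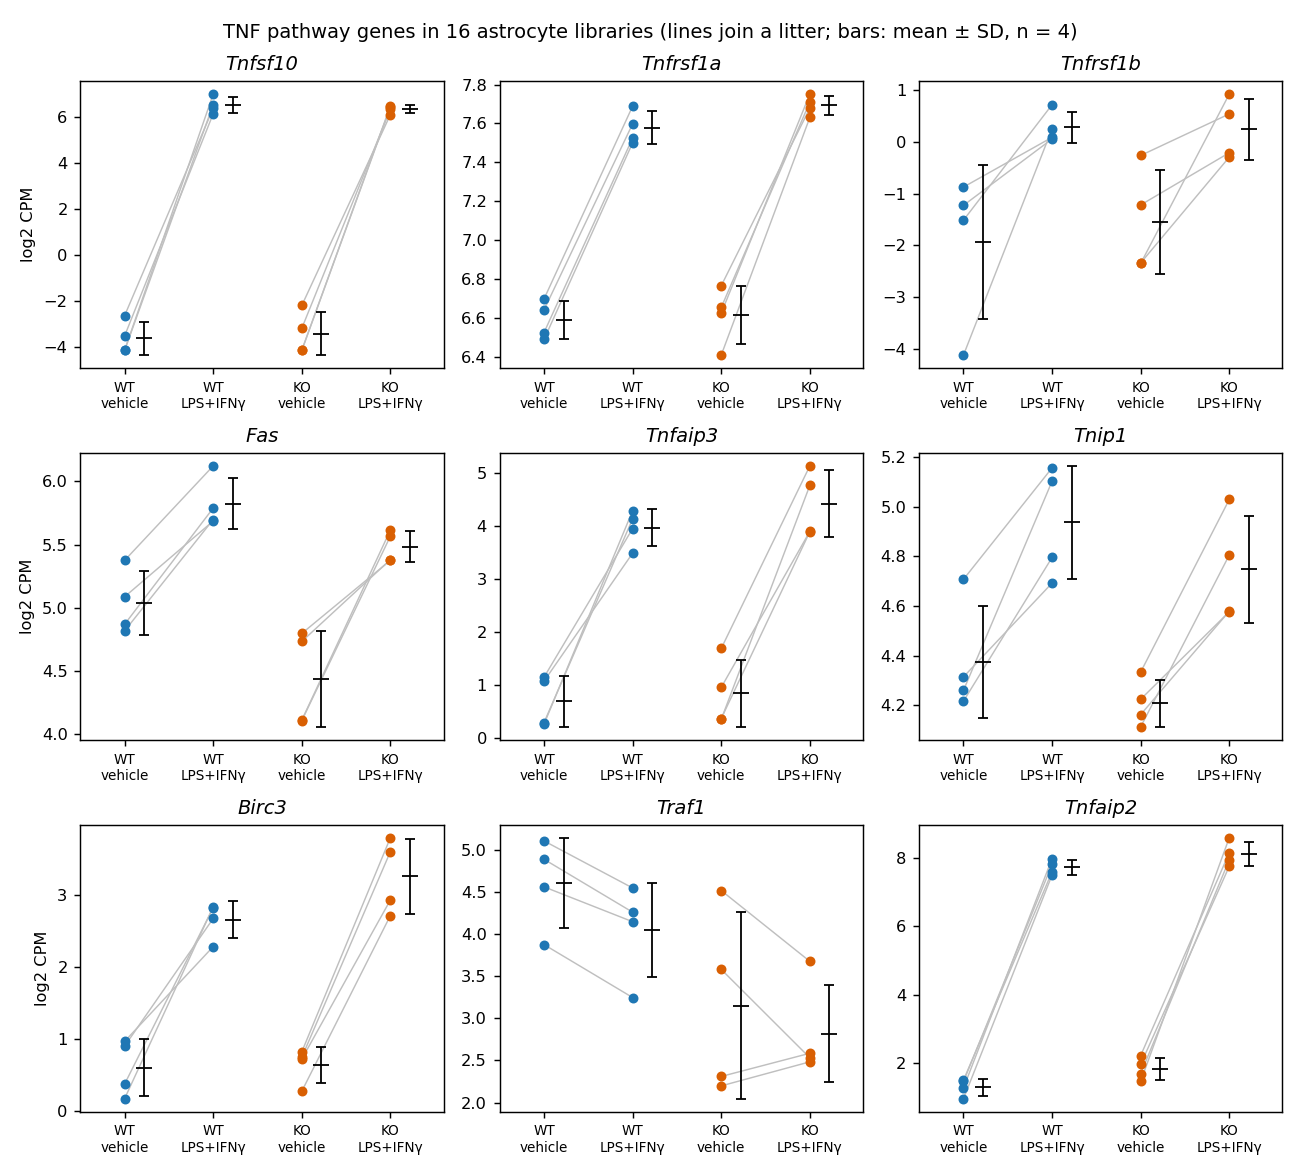
Level of each gene (log2 CPM, vertical axis, own scale per panel) in the 4 groups, with 1 point per library, grey lines joining the wells of a litter, and mean ± SD beside the points (n = 4). Tnfsf10 and Tnfaip2 show the widest gaps between vehicle and LPS+IFNγ, and Traf1 is the one gene with a lower mean under LPS+IFNγ.

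The ligands were almost silent in vehicle and were read under LPS+IFNγ. Tnf, which encodes the cytokine itself, had 0 reads in all 8 vehicle libraries. Under LPS+IFNγ it had 3, 4, 2 and 19 reads in WT litters 1 to 4 and 2, 3, 3 and 10 in KO litters 1 to 4. WT litter 4 and KO litter 4, which are different mice, were each the highest of their group. Pooled over 4 libraries, 28 reads in WT correspond to 0.21 RPM, reads scaled to the library total, (exact Poisson interval 0.139 to 0.303) and 18 in KO to 0.127 RPM (0.0753 to 0.201), intervals that cover counting error only and overlap. Against a floor of 3 reads over the 4 vehicle libraries, the pooled Tnf reads were 9.49-fold higher in WT and 6.19-fold higher in KO. These folds are not lower bounds, since they carry the counting error of the stimulated reads. WT litter 4 alone gave 19 of the 28 WT reads, and KO litter 4 alone gave 10 of the 18 KO reads. Tnf was higher in 4 of 4 litters of each genotype. In edgeR's quasi-likelihood test without a count filter, the adjusted p of Tnf was 0.100 for the WT response, 0.108 for the KO response and 0.821 for KO against WT under LPS+IFNγ.

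Tnfsf10 encodes TRAIL, a ligand that can trigger apoptosis through death receptors and is known as an interferon-induced gene. It was 0.0311, 0, 0.105 and 0 CPM in WT vehicle litters 1 to 4 and 69.8, 91.7, 82.4 and 126 CPM after LPS+IFNγ. In KO litters it was 0.163, 0, 0.0538 and 0 CPM in vehicle and 67.9, 85.4, 80.8 and 88.1 CPM after LPS+IFNγ. Every stimulated library was above every vehicle library, and the 2 genotypes overlapped. The pooled reads were 11942 against 6 in WT, a ratio of 2025 (counting interval 929.9 to 5518), and 10670 against 8 in KO, a ratio of 1377 (698.4 to 3189). The log2 response was 10.09 (SE 0.40, adjusted p = 1.59e-09) in WT and 9.73 (SE 0.40, adjusted p = 2.32e-09) in KO by limma, but 4 vehicle libraries are listed at 0, so these log2 values depend on the prior count of the deposited table.

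The 3 receptors all rose, from very different starting levels. Tnfrsf1a (TNFR1), the widely expressed receptor through which TNF can signal both survival and death, was 92.0, 104, 89.7 and 99.7 CPM in WT vehicle and 184, 206, 181 and 194 CPM in WT LPS+IFNγ. KO libraries held 101, 98.5, 109 and 84.9 CPM in vehicle and 209, 215, 205 and 198 CPM after LPS+IFNγ. The lowest stimulated library lay above the highest vehicle library in both genotypes. The increase was 0.99 (SE 0.05, adjusted p = 2.36e-08) on the log2 scale in WT and 1.08 (SE 0.05, adjusted p = 9.86e-09) in KO, and single litters ranged from 0.96 to 1.01 in WT and 0.91 to 1.22 in KO.

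Tnfrsf1b (TNFR2), a receptor without a death domain that is typical of immune cells, was barely read. Its level was 0.292, 0.488, 0 and 0.369 CPM in WT vehicle and 1.59, 1.01, 1.13 and 0.983 CPM in WT LPS+IFNγ. In KO it was 0.140, 0.139, 0.372 and 0.776 CPM in vehicle and 0.758, 1.84, 0.807 and 1.40 CPM after LPS+IFNγ. WT libraries did not overlap between treatments, whereas KO litter 4 in vehicle exceeded the stimulated value of KO litter 1. The log2 response was 2.22 (SE 0.56, adjusted p = 0.00657) in WT and 1.78 (SE 0.56, adjusted p = 0.0187) in KO by limma. Its size depended on the fit, with 3.87 in WT and 4.196 in KO by edgeR, 4.51 and 4.71 by DESeq2, and 1.49 in WT by limma without WT litter 3. The KO call was lost without KO litter 1 (adjusted p = 0.0608) or KO litter 2 (adjusted p = 0.102), and a library held at most 60 Salmon reads. In vehicle the summed transcripts gave 0 to 16 reads where the deposited CPM implied 0 to 34, so its level is uncertain.

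Fas, the receptor for FAS ligand and a classic death receptor, was 33.9, 41.5, 29.2 and 28.2 CPM in WT vehicle and 51.4, 69.6, 55.2 and 51.9 CPM in WT LPS+IFNγ. In KO it was 27.8, 17.2, 26.6 and 17.2 CPM in vehicle and 41.5, 47.3, 41.6 and 49.0 CPM after LPS+IFNγ. Within each genotype the treatments did not overlap. It rose by 0.79 (SE 0.14, adjusted p = 7.40e-04) in WT and by 1.05 (SE 0.14, adjusted p = 7.18e-05) in KO on the log2 scale. KO litters 2 and 4 began lowest and had responses of 1.46 and 1.50, against 0.58 and 0.65 in KO litters 1 and 3.

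Among the feedback genes, 3 rose and Traf1 did not. Tnfaip3 encodes A20, a ubiquitin-editing enzyme that shuts down signalling from TNF and Toll-like receptors. It was 2.16, 1.17, 2.05 and 1.15 CPM in WT vehicle and 15.4, 17.5, 11.2 and 19.4 CPM in WT LPS+IFNγ. The KO values were 1.89, 3.17, 1.24 and 1.22 CPM in vehicle and 14.8, 34.9, 14.8 and 27.1 CPM after LPS+IFNγ, with stimulated litters 2 and 4 above every WT library and litters 1 and 3 within the WT range. Tnfaip3 rose 9.61-fold in WT and 11.9-fold in KO, log2 responses of 3.26 (SE 0.28, adjusted p = 1.79e-06) and 3.57 (SE 0.28, adjusted p = 7.20e-07).

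Tnip1 encodes ABIN-1, a ubiquitin-binding partner of A20. It was 18.5, 19.1, 19.8 and 26.1 CPM in WT vehicle and 27.7, 34.3, 25.8 and 35.6 CPM in WT LPS+IFNγ. The KO values were 18.6, 17.2, 20.1 and 17.8 CPM in vehicle and 23.8, 27.9, 32.6 and 23.8 CPM after LPS+IFNγ. WT litter 4 in vehicle slightly exceeded the stimulated value of WT litter 3, while in KO the treatments did not overlap. The change was small and even, 0.56 (SE 0.09, adjusted p = 3.90e-04) in WT and 0.54 (SE 0.09, adjusted p = 4.46e-04) in KO, and positive in 8 of 8 litters. Salmon gave reads to one Tnip1 transcript, NM_001199276.2, in 8 of 8 stimulated and 0 of 8 vehicle libraries. Its share of Tnip1 reads under LPS+IFNγ was 1.91 to 3.77% in WT and 4.23 to 19.6% in KO, which rests on Salmon's division of reads between overlapping transcripts and had no test.

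Birc3 encodes cIAP2, a ubiquitin ligase that is recruited to TNF receptors and is itself an NF-κB target. It was 1.24, 1.81, 1.89 and 1.07 CPM in WT vehicle and 7.05, 6.34, 4.82 and 7.10 CPM in WT LPS+IFNγ. For KO the levels were 1.59, 1.62, 1.15 and 1.71 CPM in vehicle and 7.60, 12.2, 6.53 and 13.9 CPM after LPS+IFNγ. As for Tnfaip3, stimulated KO litters 2 and 4 were the highest of all 16 libraries, and treatments did not overlap in either genotype. The log2 response was 2.06 (SE 0.23, adjusted p = 1.96e-05) in WT and 2.63 (SE 0.23, adjusted p = 2.12e-06) in KO, a 4.16-fold and 6.19-fold increase.

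Traf1, an adaptor that binds cIAP proteins at TNF receptor 2 and that is usually counted among NF-κB targets, was 14.6, 29.5, 34.3 and 23.5 CPM in WT vehicle and 9.43, 19.1, 23.3 and 17.6 CPM in WT LPS+IFNγ. In KO it was 11.9, 4.53, 22.8 and 4.90 CPM in vehicle and 5.72, 5.53, 12.7 and 5.94 CPM after LPS+IFNγ. The level differed widely between litters, and the treatments overlapped in both genotypes, but within WT each of 4 litters was lower when stimulated, by log2 changes of -0.63 to -0.41. The WT log2 response of -0.56 (SE 0.20, adjusted p = 0.0373) was past the threshold, and it was not when any 1 WT litter was left out (adjusted p = 0.07 to 0.113) or without litters as blocks (adjusted p = 0.361). In KO the response was -0.33 (SE 0.20, adjusted p = 0.184), with log2 changes of -1.05 and -0.84 in litters 1 and 3 and of 0.29 and 0.28 in litters 2 and 4. The KO value passed the threshold without litter 2 (-0.54, adjusted p = 0.0446), without litter 4 (-0.53, adjusted p = 0.0499) and in limma-voom (-0.54, adjusted p = 0.0287), whereas without litter 1 it was -0.093 (adjusted p = 0.719) and without litter 3 -0.16 (adjusted p = 0.551).

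Tnfaip2, a TNF-induced gene first described in endothelial cells, showed the widest change of the genes read in every library. It was 1.90, 2.72, 2.79 and 2.37 CPM in WT vehicle and 181, 224, 193 and 252 CPM in WT LPS+IFNγ. KO libraries held 3.86, 2.73, 3.19 and 4.63 CPM in vehicle and 216, 385, 246 and 284 CPM after LPS+IFNγ. No stimulated library came near a vehicle library, while the genotypes overlapped in both treatments. Tnfaip2 rose 85.2-fold in WT and 76.9-fold in KO, log2 responses of 6.41 (SE 0.17, adjusted p = 4.23e-11) and 6.26 (SE 0.17, adjusted p = 5.47e-11).

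**Figure D2:**
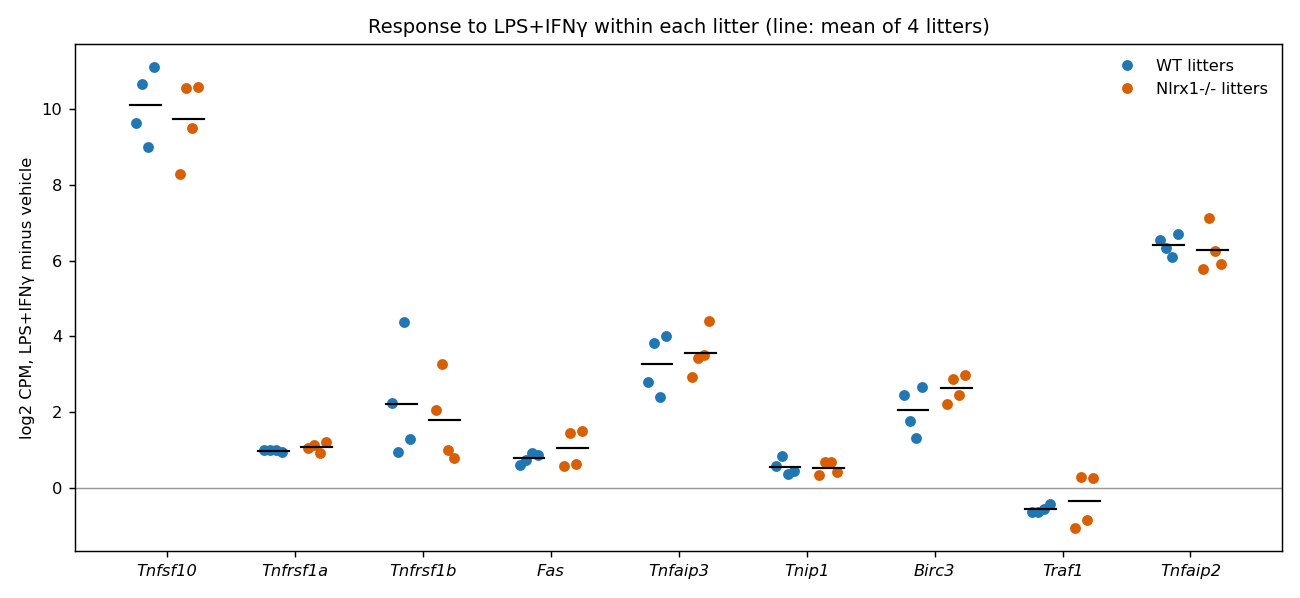
Response of each gene to LPS+IFNγ in each litter (log2 CPM, stimulated minus vehicle, vertical axis), with WT litters in blue, KO litters in orange and black lines at the mean of 4 litters. Tnfsf10, Tnfaip2, Tnfaip3 and Birc3 lie above 1 in every litter, and Traf1 lies below 0 in all WT litters but in only 2 of 4 KO litters.

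Counted together, 8 of the 9 genes were called higher and 1 lower (Traf1) in the WT response, where limma called 24.9% of the 16707 genes higher and 21.9% lower. In the KO response 8 were called higher and 0 lower, against 26.6% and 25.5% of all genes. The share of higher calls thus exceeded that of the table in both genotypes. Tnfsf10 had at most 6 reads in a vehicle library, so only its stimulated libraries took it past the low-count filter of the table. Its upward call was thereby fixed and adds no support to these counts. The median log2 response of the 9 genes was 2.06 in WT and 1.78 in KO, beside -0.02 over all genes in each. Vehicle and stimulated libraries did not overlap for 7 of the 9 genes in WT, all higher when stimulated (20.2% of all genes), and for 7 in KO (17.6%). At an adjusted p below 0.01 the 8 upward calls remained 8 in WT and became 7 in KO, where Tnfrsf1b was lost.

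Levels compared per transcript length, as TPM, put Tnfrsf1a first in every group. In WT vehicle it stood at 99.1 ± 5.70 TPM (SD, n = 4), ahead of Fas at 59.1 ± 10.4 and Traf1 at 24.2 ± 8.13, and the ranges of Traf1 and the next gene, Tnip1 (16.6 ± 2.69), overlapped. Tnfaip2, Birc3 and Tnfaip3 were between 0.803 and 1.44 TPM on average, with overlapping neighbours. Under LPS+IFNγ in WT, Tnfaip2 moved from the fifth to the second place at 107 ± 15.7 TPM, behind Tnfrsf1a at 169 ± 8.04 and with a range that overlapped Fas at 87.0 ± 10.9, and Tnfsf10 moved from the ninth to the fourth place at 36.9 ± 9.65. In KO LPS+IFNγ, Tnfaip2 (a mean of 139 TPM) overlapped Tnfrsf1a (180.1 ± 7.74). Traf1 was in the third place in WT vehicle and in the fourth in KO vehicle (9.86 ± 7.38), and in the sixth (14.1 ± 4.51) and eighth (6.09 ± 3.02) under LPS+IFNγ.

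The comparison of the genotypes asks whether these genes differed in astrocytes without NLRX1. In vehicle, limma called 0 of the 9 genes higher and 0 lower in KO, where 0% of all genes were called higher and 0.00599% lower, the one gene being Nlrx1 itself. At an unadjusted p under 0.05 there were 3 of the 9, namely Fas, Traf1 and Tnfaip2, beside 3532 of all genes (21.1%). On the log2 scale Fas was -0.60 (SE 0.16, adjusted p = 0.102) in KO against WT, with an interval of -0.95 to -0.25. Its KO libraries were all below its WT libraries (3.43% of all genes), although KO litter 1 at 27.8 CPM lay just under WT litter 4 at 28.2 CPM. DESeq2 on summed counts gave Fas an adjusted p of 0.0258, and the fit without KO litter 3 gave -0.70 (adjusted p = 0.0242). Leaving out any other litter gave no call, and over all 8 leave-outs the difference ran from -0.72 to -0.49 and the adjusted p up to 0.345. Tnfaip2 was 0.54 (SE 0.19, adjusted p = 0.136) in KO against WT, with overlapping libraries.

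Traf1 had the widest genotype difference among the 9 genes. In vehicle it was -1.46 (SE 0.45, adjusted p = 0.116) in KO against WT, with an interval of -2.42 to -0.50, and the libraries overlapped, with KO litter 3 at 22.8 CPM above WT litter 1 at 14.6 CPM. Without KO litter 3 the difference was -1.91 (adjusted p = 0.00876, where 5.57% of all genes were called lower), and without KO litter 2 it was -1.14 (adjusted p = 0.383). Under LPS+IFNγ it was -1.23 (SE 0.45, adjusted p = 0.0863), with an interval of -2.19 to -0.27. Leaving out WT litter 1 gave -1.50 (adjusted p = 0.0474) and leaving out KO litter 3 gave -1.52 (adjusted p = 0.00903, where 11.9% were called lower), while leaving out WT litter 3 gave -1.06 (adjusted p = 0.22). With litter as a random effect Traf1 was not called in vehicle (adjusted p = 0.0818) or under LPS+IFNγ (adjusted p = 0.0589). Whether Traf1 passed the threshold thus depended on single litters. KO litters 2 and 4, lowest for Traf1 in vehicle, also stood apart there for some cell type markers. Gfap was 165 and 326 CPM in them, against 728 to 2592 CPM in the other vehicle libraries. Mbp was 5.55 and 7.93 CPM against 61.0 to 229 CPM. Olig1 went the other way, at 2813 and 2570 CPM against 1602 to 2261 CPM. Whether these cultures differed in ways that bear on Traf1 or Fas was not tested.

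**Figure D3:**
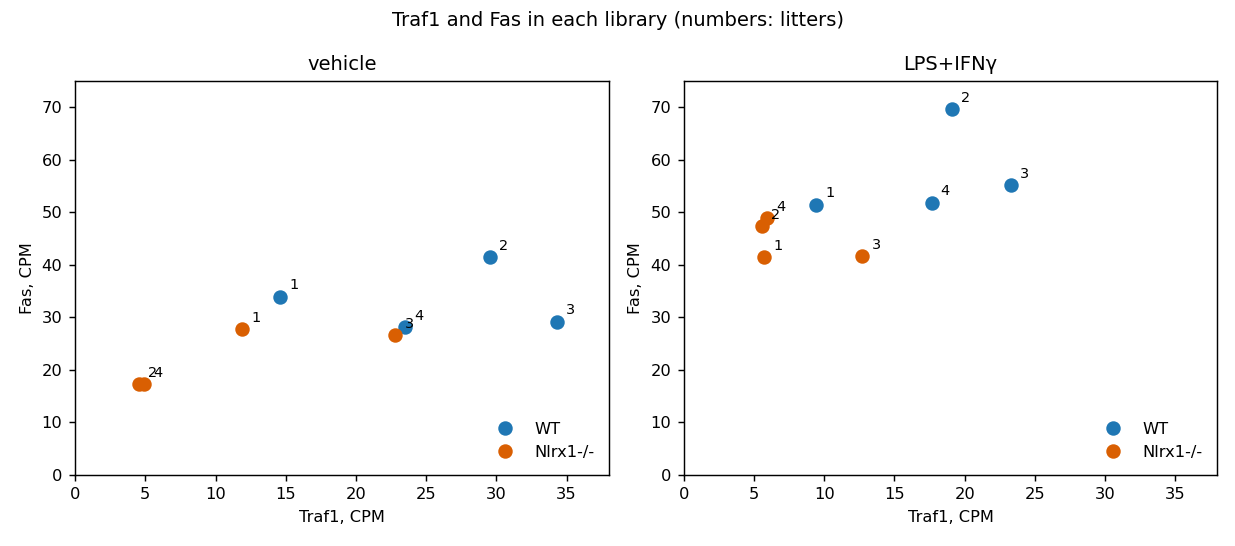
Traf1 (CPM, horizontal axis) against Fas (CPM, vertical axis) in vehicle and LPS+IFNγ libraries, numbered by litter, WT in blue and KO in orange. KO litters 2 and 4 are lowest for both genes in vehicle, at 4.53 and 4.90 CPM of Traf1 and at 17.2 CPM of Fas each, and under LPS+IFNγ KO litter 3 stands apart for Traf1 at 12.7 CPM.

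Under LPS+IFNγ, limma again called 0 of the 9 genes in either direction, against 4.4% of all genes higher and 4.41% lower in KO. At an unadjusted p under 0.05 there were 2 of the 9, Traf1 and Birc3, while 4950 of all genes (29.6%) were. Birc3 was 0.61 (SE 0.26, adjusted p = 0.13) in KO, with an interval of 0.06 to 1.16 and overlapping libraries, and without KO litter 3 it was 0.79 (adjusted p = 0.0356, 11.3% of all genes called higher). The other leave-outs gave no call, down to 0.43 without KO litter 4 (adjusted p = 0.352). Fas was -0.34 (SE 0.16, adjusted p = 0.18), again with every KO library below every WT library (6.23% of all genes). Tnfaip3 was 0.46 (SE 0.34, adjusted p = 0.388) and Tnfaip2 0.39 (SE 0.19, adjusted p = 0.174). For Tnfrsf1a the difference was 0.11 with an interval of -0.04 to 0.27, the narrowest of the 9, and for Tnip1 it was -0.19 (-0.47 to 0.09). Tnfsf10 differed by -0.17 (-1.02 to 0.68) and Tnfrsf1b by -0.04 (-1.36 to 1.28), so these data leave room for differences of either sign.

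The difference between the KO and the WT response was not called for any of the 9 genes, nor for any gene of the table (0% in each direction, lowest adjusted p 0.164, 2786 genes or 16.7% at an unadjusted p under 0.05, 0 of them among the 9). Birc3 had the highest value, 0.57 (SE 0.33, adjusted p = 0.406), with an interval of -0.15 to 1.29. Tnfaip3 was 0.31 (-0.55 to 1.16), Fas 0.26 (-0.18 to 0.70) and Traf1 0.22 (-0.39 to 0.84). The intervals of Tnfrsf1a (-0.07 to 0.25) and Tnip1 (-0.31 to 0.26) were the narrowest. DESeq2, which called 113 genes higher and 197 lower for this difference, called 0 of the 7 genes to which it gave an adjusted p. Tnfrsf1b and Birc3 received none. On summed counts the value of Birc3 was smaller, 0.34 by edgeR and 0.35 by DESeq2, close to that of Tnfaip3 (0.34 and 0.33). In vehicle the summed transcripts gave Birc3 23 to 71 reads where the deposited CPM implied 39 to 88.

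**Figure D4:**
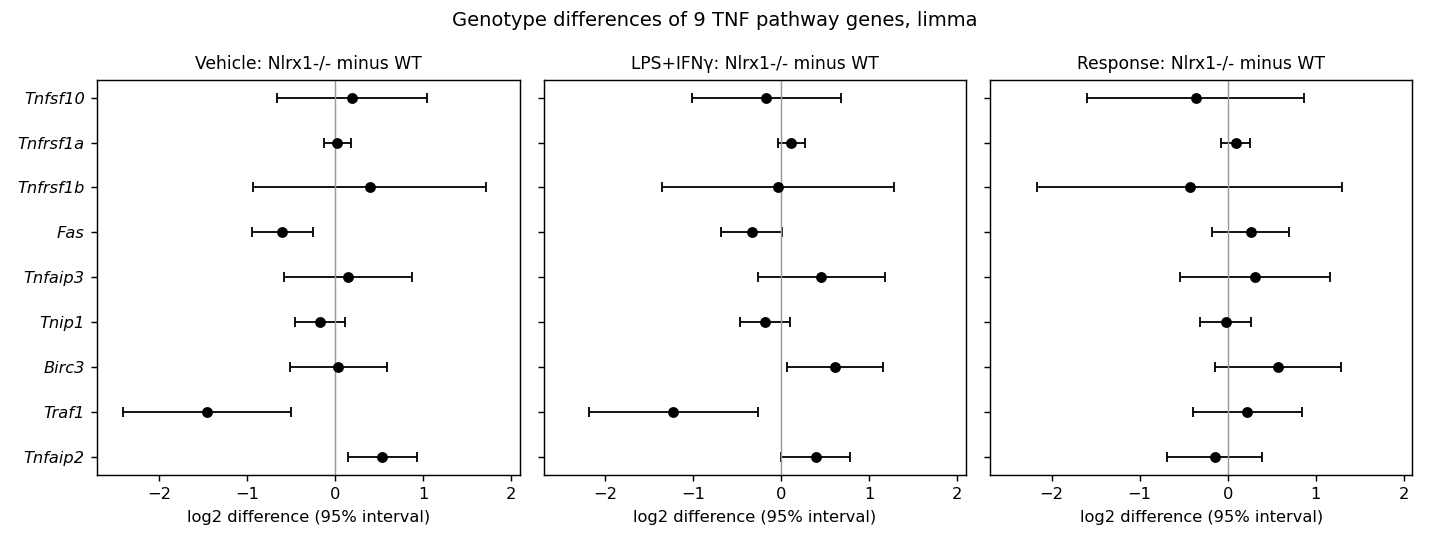
Differences between KO and WT (log2, horizontal axis, points) with 95% intervals (bars) from limma, for vehicle, LPS+IFNγ and the response. The intervals of Traf1 lie below 0 in both treatments, at -2.42 to -0.50 and -2.19 to -0.27, and every interval in the response panel includes 0, yet no adjusted p passed the threshold.

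The other genes of the pathway came from lists of symbols, and their counts stand beside the calls of all genes, 24.9% higher and 21.9% lower in WT and 26.6% and 25.5% in KO. Of 16 further TNF superfamily ligands, 7 were in the table and 3 rose in WT (Tnfsf13b by 3.99, Cd70 by 2.44 and Tnfsf12 by 0.49 on the log2 scale), while Eda fell by 1.85. In KO, 3 rose (Tnfsf13b, Cd70 and Tnfsf18) and Eda fell by 1.08. Tnfsf13b, the B cell survival factor BAFF, reached 1.93 to 4.91 CPM in stimulated WT libraries. Of 25 further TNF receptor genes, 18 were in the table, and in each genotype 9 rose and 1 fell. The largest WT increases were those of Tnfrsf14 (the herpesvirus entry mediator, log2 7.91 in WT and 8.02 in KO, with at most 0.1 CPM in any vehicle library), Cd40 (2.93 and 2.87), Tnfrsf11b (osteoprotegerin, 2.32 and 2.70) and Tnfrsf10b (the mouse receptor for TRAIL, 1.38 and 1.62). Tnfsf13b, Cd70, Tnfrsf14 and Cd40 were near 0 in vehicle, at most 0.308, 0.21, 0.1 and 0.604 CPM. They may have passed the low-count filter only through their stimulated libraries, as Tnfsf10 did. Where that holds, the upward call was fixed and adds no support to these counts. Their log2 values also depend on the prior count.

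The receptor-proximal list, which holds adaptors, kinases and the linear ubiquitin ligase, had all 23 genes in the table. In WT 12 rose and 2 fell, beside 24.9% and 21.9% of all genes, and in KO 14 rose and 2 fell, beside 26.6% and 25.5%. Casp8 (log2 1.69 in WT and 1.56 in KO), Rnf31 (1.61 and 1.60), Traf5 (1.08 and 1.19) and Ripk1 (0.80 and 0.89) had the largest WT increases among them. Of the 8 measured deubiquitinases and A20 partners, 2 rose and 1 fell in WT, shares near or below those of all genes, and 4 rose in KO. Cyld, a deubiquitinase that opposes NF-κB, rose by 0.76 and 0.65. All 11 NF-κB and IκB genes were measured, of which 9 rose in WT and 10 in KO, led in WT by Bcl3 (3.91 and 5.93), Nfkbiz (2.52 and 2.79), Nfkbie (1.68 and 1.49) and Nfkbia (1.45 in both). Bcl3 lay at 0.107 to 0.345 CPM in WT vehicle and 0 to 0.058 CPM in KO vehicle, and its responses differed by 2.02 (SE 0.44, limma adjusted p = 0.164). At such vehicle levels its log2 values depend on the prior count. Bcl3 may have passed the low-count filter only through stimulated libraries, in which case its upward calls add no support to the counts.

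Between genotypes under LPS+IFNγ, 3 of the 18 receptor genes were called higher in KO and 1 lower, where 4.4% and 4.41% of all genes were. The higher ones were Tnfrsf10b (0.70, SE 0.17, adjusted p = 0.0349), Eda2r (0.61, SE 0.17, adjusted p = 0.0412) and Tnfrsf21 (0.46, SE 0.14, adjusted p = 0.0488), and the lower one was Cd27 (-2.15, SE 0.46, adjusted p = 0.0349), at 0.431 CPM or less in every stimulated library. Tnfrsf10b was 10.7 to 13.2 CPM in WT and 15.2 to 25.5 CPM in KO. Of the 11 NF-κB and IκB genes, Nfkb1 (0.43, SE 0.13, adjusted p = 0.0461) and Nfkb2 (0.51, SE 0.15, adjusted p = 0.0497) were called higher in KO, with Nfkb2 at 49.9 to 51.9 CPM in WT and 52.0 to 97.0 CPM in KO. Such calls under LPS+IFNγ depended on single litters. Without WT litter 2, 3 or 4 limma called 0 genes of the whole table higher and 1 lower in KO, without KO litter 2 it called 0 and 2, and without KO litter 4 it called 1 and 1. In vehicle limma called 0 genes of the lists. The unadjusted p there was under 0.05 for 1 of 7 ligands, 4 of 18 receptors, 10 of 23 receptor-proximal genes, 1 of 8 A20 partners or deubiquitinases and 1 of 11 NF-κB or IκB genes, beside 21.1% of all genes.

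The responses of the 8 litters were also compared with those of 11979 genes that had a mean of at least 1 log2 CPM. The genes with the most similar pattern were Fggy (Pearson r 0.97), Emb and Ccdc151 for Tnfsf10, and Bod1l (0.97), Med12 and Uckl1 for Birc3. With 8 points taken from 2 genotypes and so many genes searched, these values are a description. Fggy itself hardly responded, at 0.11 in WT and 0.10 in KO on the log2 scale. Between members, the response of Traf1 followed that of Fas with r 0.97, a pair picked after the values were seen. Genes outside the list lay as close or closer to Traf1, the highest also at r 0.97. The response of Tnfaip3 followed that of Tnfsf10 with r 0.78 and ran against that of Tnfrsf1b with r -0.78. The points of each correlation share libraries and their depth.

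Some values rest on exons that 2 genes share. In the GENCODE M39 annotation of GRCm39, exons of Tnip1 (chr11:54796320-54854661) overlap Gpx3 and those of Tnfrsf1a (chr6:125325566-125339632) overlap Plekhg6, each on the other strand. Exons of Tnfaip2, Tnfaip3, Traf1 and Tnfrsf1b overlap genes with provisional names. The libraries did not keep the strand, so reads in those exons cannot be told apart. Fas, Tnfsf10, Birc3 and Tnf had no such overlap.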

How the data were processed

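Expression was measured by poly-A RNA-seq in 16 libraries from primary astrocyte cultures, 4 litters per genotype with a vehicle and an LPS+IFNγ well each. Per the submitters' processing notes the authors used Salmon 1.7.0 and limma 3.58.1 on GRCm39. The study's methods state that the libraries were not strand-specific. They deposited for each transcript an expected count and a TPM from Salmon, with effective lengths. The authors also deposited a table of normalized CPM (signal values from length-scaled counts with a filter on low counts) and the log2 of it with a small prior count. The member list, gene lists and tests were chosen with earlier results of these data known.

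The members were matched by symbol. Genes were tested with limma 3.58.1 (lmFit, eBayes with trend) in R 4.3.3 on the deposited log2 CPM of all 16707 rows and all 16 libraries, with Benjamini-Hochberg adjustment over all rows and a threshold of 0.05. Responses and their difference had litters as blocks within genotype. Genotypes were compared per treatment in a fit of the 4 conditions. Intervals of limma are 95%. For each gene, expected counts of its transcripts were added up, using the 106440 of 129698 transcripts that could be paired with a symbol (96.7 to 97.3% of reads), and then rounded for edgeR 4.0.16 and DESeq2 1.42.0 as alternatives. TPM was summed the same way. Floors are 3 reads. Within a genotype, wells with the same number come from the same set of mice, and their deviations from the group means correlated in all 8 litters (r 0.07 to 0.35, consensus correlation 0.364). Named besides the members are Nlrx1, the up to 4 list genes with the largest called WT response, list genes behind counts of 5 or fewer, and the 3 genes most like Tnfsf10 and Birc3 each (those of Tnfaip3 are not reported here). In simulated data, 200 of 16707 genes were changed by 1 log2 unit. Of these, limma recovered 95.5% for the WT response, 87.5% for the difference of responses and 95% for KO against WT under LPS+IFNγ. Unchanged genes made up 9.91% of its calls in the simulated WT response. The simulated libraries held no litter effects, and genes of the lowest levels were not changed. These percentages therefore do not measure the power of the genotype comparisons in the real litters. Other alternatives were a count filter, limma-voom, quantile normalization, a pseudocount of 1, a minimum mean of 1 CPM, the block, the libraries in the fit, a threshold of 0.01 and leaving out each litter.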

Additional observations from a re-analysis of the deposited data

Results flagged for a closer look

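Traf1 in KO litter 3 under LPS+IFNγ stood far from the other libraries of its group. It was 3.67 log2 CPM, or 12.7 CPM, while the other 3 libraries lay between 2.48 and 2.58 log2 CPM (5.53 to 5.94 CPM). The gap to the nearest of them was 0.915 of the whole range of the group, above the critical value of Dixon's test for 4 samples. It was 1 of 54 groups of values tested this way, and chance flags about 1 in 20 groups. The same litter was also highest for Traf1 in KO vehicle, at 22.8 CPM.

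Reads of Tnf appeared outside the gene table. The transcript counts held 28 reads in the 4 WT and 18 in the 4 KO libraries treated with LPS+IFNγ, against 0 in the 8 vehicle libraries.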

How the results depend on the processing

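Over 20 alternative settings, 766 of 814 member values kept direction and side of the threshold, 9 lost and 11 gained a call, and 28 changed sign, 0 of these with an adjusted p under 0.05. The cause of these changes was not tested. Many of the 814 values could not change direction. Leaving out a litter of 1 genotype does not move the response estimate of the other. The stricter threshold, the blocks and the choice of libraries in the fit reuse the same estimates. Without the replicate block that pairs the wells of a litter, 0 in place of 1 member (Traf1) was called lower in the WT response. Between genotypes a replicate number joins different mice and pairs nothing. A replicate block of these numbers called 1 member (Traf1) lower in KO in vehicle and 1 under LPS+IFNγ, both with 0 in the reported fit, whereas litter as a random effect called 0. The blocks changed no other member's call. DESeq2 called 1 member lower in KO vehicle, limma-voom called 1 lower in the KO response, and an adjusted p below 0.01 left 0 lower in the WT response. When 1 litter was left out, members called ranged from 0 to 1 lower in the WT response, 0 to 1 lower in the KO response, 0 to 2 lower in KO in vehicle, and 0 to 1 higher and 0 to 1 lower in KO under LPS+IFNγ.

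The calls of all genes moved more. In vehicle 0 higher and 1 lower became 486 and 295 with DESeq2, 358 and 233 with the block of replicate numbers, 331 and 163 without WT litter 1 and 688 and 930 without KO litter 3. Under LPS+IFNγ 735 and 736 became 1266 and 1236 with DESeq2, 426 and 382 with edgeR, 1370 and 1445 with the block, 1888 and 1980 without KO litter 3, and 0 and 1 with the 8 libraries of that treatment alone. They also became 0 and 1 without WT litter 2, 3 or 4, 0 and 2 without KO litter 2, 1 and 1 without KO litter 4 and 392 and 404 without KO litter 1. For the difference of responses 0 and 0 became 113 and 197 with DESeq2 and 378 and 444 without KO litter 3.

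Tnfrsf1b, with few reads, changed sign most often. Its genotype differences (difference of responses, vehicle, LPS+IFNγ) were 0.33, -0.65 and 0.086 with edgeR, 0.20, -0.66 and 0.10 with DESeq2 and 0.30, -0.64 and 0.084 in edgeR without the count filter, and 0.063 under LPS+IFNγ after quantile normalization, against -0.43, 0.39 and -0.04 as reported. Leaving out 1 litter gave -0.93 to 0.29, -0.34 to 0.75 and -0.27 to 0.14 for the same 3. On leaving out 1 litter, the difference of responses ranged from -0.084 to 0.071 for Tnip1, -0.73 to 0.12 for Tnfsf10 and -0.43 to 0.012 for Tnfaip2, and the vehicle difference from -0.11 to 0.16 for Birc3, -0.026 to 0.093 for Tnfrsf1a, -0.21 to 0.52 for Tnfsf10 and -0.14 to 0.31 for Tnfaip3.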
